A study of Mus musculus with 34 samples.

Results

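The mitotic kinases, spindle proteins and kinetochore proteins described here were 34 genes named by symbol, and each was represented by its brightest probeset on Affymetrix Mouse Gene 1.0 ST arrays. Of the 34, 33 were measured among 19938 genes, and Ccnb1, the main B-type cyclin, had no probeset of that symbol alone. All 33 were brighter than the median gene. The arrays profiled mouse BCR/ABL-positive precursor-B acute lymphoblastic leukaemia cells before drug (start), when few cells were alive (midpoint) and when the culture had recovered under continuous drug (end).

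There were 34 arrays in 12 groups. Line 8093 came from the leukaemia of a BCR/ABL transgenic mouse on an inbred C57BL/6J background, and line Bin-2 from that of a transgenic mouse of mixed background, so each line stands for 1 leukaemia. All cultures, starts included, were grown with 10 ng/ml interleukin-3 on irradiated mouse embryonic fibroblasts, and the loosely attached and floating cells were harvested, at the midpoints from larger or pooled dishes. Nilotinib (AMN107, an inhibitor of the ABL kinase) was given at 20 nM to 8093, with arrays on days 0, 3 and 20, and at 50 nM to Bin-2, with arrays on days 0, 3 and 21. Lonafarnib (SCH66336, an inhibitor of protein farnesyltransferase) was given at 1 µM to 8093, with arrays on days 0, 4 and 26, and at 0.25 µM to Bin-2, with arrays on days 0, 3 and 30. Viability was 5 to 10% at the midpoints, 20% at that of the 8093 lonafarnib course, and about 90% at the ends. Each group held 3 arrays from separate plates, except both 8093 ends with 2. The p-values therefore measure the spread between plates within a group, pooled over the 12 groups of both lines, and not that between leukaemias. The midpoint and end of a course were compared with the same start arrays. Since the lines received different doses, an effect of line and an effect of dose cannot be told apart.

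Entry into mitosis is driven by the kinase CDK1 bound to cyclins A and B. The phosphatase CDC25C activates it, the polo-like kinase PLK1 reinforces it, and the transcription factor FOXM1 helps to drive transcription of many genes of this phase. The Aurora kinases build and correct the spindle, the checkpoint kinases BUB1 and TTK hold back the activator CDC20 until every kinetochore is attached, and motor proteins separate the chromosomes and the daughter cells. Transcripts of these genes peak in G2 and mitosis, so in a bulk sample their level can vary with the share of dividing cells. Dividing pre-B leukaemia cells carry these transcripts at high levels. Many of their promoters hold CCAAT boxes, bound by NF-Y, and the cell cycle genes homology region (CHR), a short element through which the DREAM and MuvB complexes act.

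The promoters below are shown because the genes moved together in 8093 under nilotinib, and they include the genes that departed from the group. RefSeq promoter windows (GRCm38.p6) were found for 26 of the 33 measured genes. CCAAT boxes (the letters CCAAT, or ATTGG on the other strand) and CHR elements (TTTGAA or TTCGAA, with TTCAAA on the other strand) were searched on both strands in the 250 bases before each start. Printed are the 150 bases before the start, 5′ to 3′ on the gene's strand, with these motifs in capitals.
Cdk1 (chr10:69352913-69353062, minus strand): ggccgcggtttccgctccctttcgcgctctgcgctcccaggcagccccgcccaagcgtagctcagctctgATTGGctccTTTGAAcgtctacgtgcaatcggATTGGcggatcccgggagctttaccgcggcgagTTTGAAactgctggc
Plk1 (chr7:122159285-122159434, plus strand): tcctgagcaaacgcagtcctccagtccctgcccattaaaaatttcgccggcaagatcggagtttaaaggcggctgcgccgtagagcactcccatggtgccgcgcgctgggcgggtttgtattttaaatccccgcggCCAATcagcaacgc
Aurka (chr2:172370571-172370720, minus strand): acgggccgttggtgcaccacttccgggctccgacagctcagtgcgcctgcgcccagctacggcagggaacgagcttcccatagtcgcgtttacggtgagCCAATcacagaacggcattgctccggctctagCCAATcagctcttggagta
Bub1 (chr2:127831860-127832009, minus strand): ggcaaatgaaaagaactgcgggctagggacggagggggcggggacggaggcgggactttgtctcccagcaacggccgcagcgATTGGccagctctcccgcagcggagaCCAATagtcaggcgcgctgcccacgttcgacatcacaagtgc
Cdc20 (chr4:118437344-118437493, minus strand): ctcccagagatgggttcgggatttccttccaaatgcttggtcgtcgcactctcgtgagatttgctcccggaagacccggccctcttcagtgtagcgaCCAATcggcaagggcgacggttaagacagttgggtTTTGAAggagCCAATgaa
Prc1 (chr7:80294301-80294450, plus strand): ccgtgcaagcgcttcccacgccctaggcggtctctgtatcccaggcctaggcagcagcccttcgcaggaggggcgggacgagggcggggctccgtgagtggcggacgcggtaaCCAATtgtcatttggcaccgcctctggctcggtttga
Mad2l1 (chr6:66535071-66535220, plus strand): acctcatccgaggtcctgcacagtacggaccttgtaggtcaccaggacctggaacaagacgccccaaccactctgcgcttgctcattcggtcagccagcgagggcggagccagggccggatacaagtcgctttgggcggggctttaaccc
Top2a (chr11:99024190-99024339, minus strand): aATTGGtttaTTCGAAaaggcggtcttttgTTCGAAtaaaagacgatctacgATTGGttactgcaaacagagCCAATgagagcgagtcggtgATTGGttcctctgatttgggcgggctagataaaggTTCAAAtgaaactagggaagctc
Mki67 (chr7:135716380-135716529, minus strand): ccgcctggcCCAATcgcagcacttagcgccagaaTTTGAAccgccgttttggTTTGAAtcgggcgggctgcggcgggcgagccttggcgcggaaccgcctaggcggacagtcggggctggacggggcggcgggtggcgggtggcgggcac

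A CCAAT box lay within 250 bases of the start in 19 of the 26 genes (73.1%), against 37.5% of 27025 RefSeq genes. A CHR element was present in 11 (42.3%), against 19.6% of all genes, and 10 held both motifs (38.5%, against 7%). A gene counted if any of its windows held the motif, and Ect2 and Prc1 had 2 windows each. The printed Prc1 window has no CHR, and Prc1 was counted for CHR and for both through its other window. The motifs can share no more than an end letter, so no match of one counted as a match of the other. The promoter of Top2a, which encodes the DNA topoisomerase of condensing chromosomes, showed 4 CCAAT boxes and 3 CHR elements in the printed window. The promoter of Mki67, which encodes the Ki-67 coat protein of mitotic chromosomes, showed 1 and 2. The printed window of Mad2l1, which encodes the checkpoint protein MAD2, had neither. These are matches of letters in a window and were not measured as binding sites.

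Levels are log2 probeset signals, so 1 unit is a 2-fold difference, and levels of different genes were not compared because each probeset has its own brightness. The mean log2 level of the 33 genes in the 3 start arrays of the 8093 nilotinib course was 8.76, 8.68 and 8.66. It was 7.51, 7.43 and 7.35 at the midpoint and 7.51 and 7.79 at the end. Every midpoint and end array of that course lay below every start array. In the 8093 lonafarnib course the group means were 8.72, 8.22 and 8.57 in the order start, midpoint, end. In Bin-2 it went from 8.67 to 8.40 and 8.46 under nilotinib, and from 8.60 to 8.68 and 8.49 under lonafarnib.

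**Figure D1:**
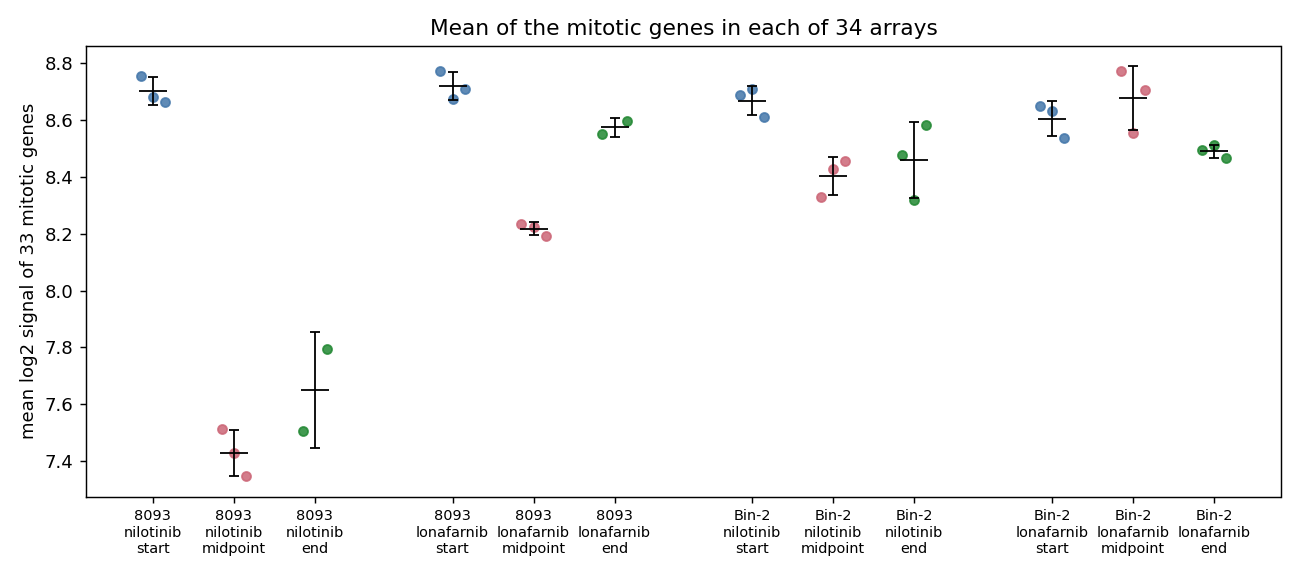
Mean log2 signal of the 33 measured genes in each of the 34 arrays, by group along the horizontal axis. Dots are arrays, bars are group means and whiskers are SD; the 8093 nilotinib midpoint and end, at 7.43 and 7.65, sit below the other 10 groups, whose means run from 8.22 to 8.72.

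The arrays of the 8093 nilotinib end departed from their label as leukaemia cells. Over 18 measured pre-B cell genes their mean log2 level was 5.91 to 6.12, against 9.04 to 9.24 at the start. Over 14 mast cell genes it was 11.56 to 11.57, against 3.93 to 4.20, and over 15 macrophage genes 7.78 to 9.29, against 4.85 to 4.97. At the midpoint of the same course the pre-B mean was 8.73 to 9.26, the mast cell mean 9.17 to 10.1 and the macrophage mean 8.24 to 9.15. In every other group the pre-B mean was at or above 8.99. The spread of all probeset values within an array was narrower at 2 midpoints, with a mean interquartile range of 3.03 in the 8093 nilotinib midpoint and 3.16 in the Bin-2 lonafarnib midpoint, against 3.42 to 3.55 in the other groups. In bulk arrays a smaller share of dividing cells and less mitotic RNA in each cell cannot be told apart, nor can living from dying cells as the source.

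In 8093 treated with nilotinib, 32 of the 33 genes fell from start to midpoint and none rose. In this comparison 27.5% of all genes were called lower and 22.6% higher (limma, adjusted p below 0.05 over all 19938 genes). The median change of the 33 was -1.30 on the log2 scale, or 2.46-fold lower, against 0.03 over all genes, and 27 fell at least 2-fold, as did 7.63% of all genes. In all 32 genes the midpoint arrays lay below the start arrays, as they did in 28.7% of all genes. The falls were found in every functional group, with medians from -1.58 for the spindle checkpoint and anaphase genes (6 of 6 called) to -1.23 for the centromere and kinetochore genes (5 of 5), apart from the pair Top2a and Mki67. In the same comparison 14 of 14 mast cell and 13 of 15 macrophage markers were called higher, as were 14 of 19 fibroblast markers, whose mean was 5.92 to 6.20 against 5.03 to 5.11 at the start. The part of these markers in the falls was not tested.

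Among the genes of mitotic entry, Cdk1 had log2 levels of 9.19, 8.99 and 8.93 at the start and 7.68, 7.73 and 7.49 at the midpoint. The groups did not overlap, and the fall was 1.40 ± 0.17 (SE), or 2.65-fold (limma adjusted p = 5.93e-08). Plk1 was at 9.43, 9.17 and 9.16 at the start and at 8.05, 7.86 and 7.94 at the midpoint, a fall of 1.30 ± 0.13 (adjusted p = 2.15e-09). Cdc25c, whose product removes the inhibitory phosphates of CDK1, was at 7.38, 7.13 and 7.11 at the start and at 5.65, 5.38 and 5.18 at the midpoint. Its fall of 1.81 ± 0.16, or 3.50-fold, was the largest of this group. The cyclin genes Ccna2 and Ccnb2 fell by 1.24 and 1.11. Foxm1 was at 7.38, 7.19 and 7.26 at the start and at 6.89, 6.69 and 6.48 at the midpoint, with no overlap, and fell by 0.59 ± 0.13 (adjusted p = 0.000502), the smallest fall of any gene called.

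Of the Aurora and chromosomal passenger genes, Aurka, the centrosomal and spindle kinase, was at 8.89, 8.58 and 8.78 at the start and at 7.35, 7.21 and 7.25 at the midpoint. Its change was -1.48 ± 0.12, a 2.79-fold fall. Aurkb, the kinase of the passenger complex at centromeres and midzone, was at 9.61, 9.34 and 9.41 at the start and at 7.90, 7.93 and 8.10 at the midpoint. Its change was -1.48 ± 0.11, and neither Aurora gene showed overlap between groups. Birc5 (survivin) was at 7.91, 7.70 and 7.69 and then at 6.48, 6.75 and 6.70, a change of -1.12 ± 0.16. Incenp, the scaffold that holds Aurora B and survivin together, changed by -0.61 ± 0.10. Tpx2, which activates Aurora A on spindle microtubules, changed by -1.43.

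The checkpoint genes had the lowest median of the groups, with Bub1 and Ttk among the largest falls of all. Bub1 was at 9.54, 9.33 and 9.18 at the start and at 7.76, 7.52 and 7.27 at the midpoint. Its change of -1.83 ± 0.13, or 3.56-fold lower, had an adjusted p of 1.9e-12 with limma. Ttk, the checkpoint kinase MPS1, was at 7.55, 7.26 and 7.40 and then at 5.85, 5.44 and 5.51, a fall of 3.50-fold. Cdc20, the activator of the anaphase-promoting complex, was at 8.86, 8.50 and 8.82 and then at 7.34, 7.13 and 6.86, a fall of 3.06-fold. Mad2l1 was at 10.20, 10.30 and 10.27 and then at 8.70, 8.74 and 8.70, a fall of 2.91-fold. None of these 4 genes had overlapping groups. Bub1b, the checkpoint protein BUBR1, changed by -1.27 and Espl1, the protease separase, by -1.07.

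Among kinetochore genes Nuf2, a subunit of the NDC80 complex that grips microtubules, was at 8.61, 9.21 and 8.99 at the start and at 7.38, 7.49 and 7.15 at the midpoint. Its change was -1.60 ± 0.21, and that of its partner Ndc80 was -0.96. The kinetochore motor gene Cenpe changed by -1.31, the centromeric histone gene Cenpa by -1.23, and Cenpf, whose product coats the outer kinetochore, by -0.98. Of the spindle motors, the chromokinesin gene Kif4 was at 7.92, 7.71 and 7.84 and then at 6.33, 6.20 and 6.04, with no overlap and a fall of 3.10-fold. Kif11, the motor that pushes spindle poles apart, changed by -1.53, Kif2c, a microtubule-depolymerizing kinesin, by -1.36 and the microtubule-bundling gene Nusap1 by -1.17. The 5 midzone and cytokinesis genes changed by -1.38 (Prc1), -1.36 (Ect2), -1.29 (Kif20a), -1.26 (Kif23) and -1.09 (Anln).

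Mki67 was the exception. It was at 9.50, 9.69 and 9.57 at the start and at 9.52, 9.27 and 9.38 at the midpoint, so the groups overlapped. The change of -0.19 ± 0.12 (95% interval -0.43 to 0.05) was not called (limma adjusted p = 0.182), and its sign turned under both other scalings of the arrays, to 0.06 with quantile normalization and 0.18 with one interquartile range. Top2a was at 10.55, 10.50 and 10.48 and then at 9.81, 9.53 and 9.46, without overlap, and changed by -0.91 ± 0.13. The median over all 33 genes was -1.04 and -1.16 under the 2 scalings, and the same number of genes, 32, was called lower.

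**Figure D2:**
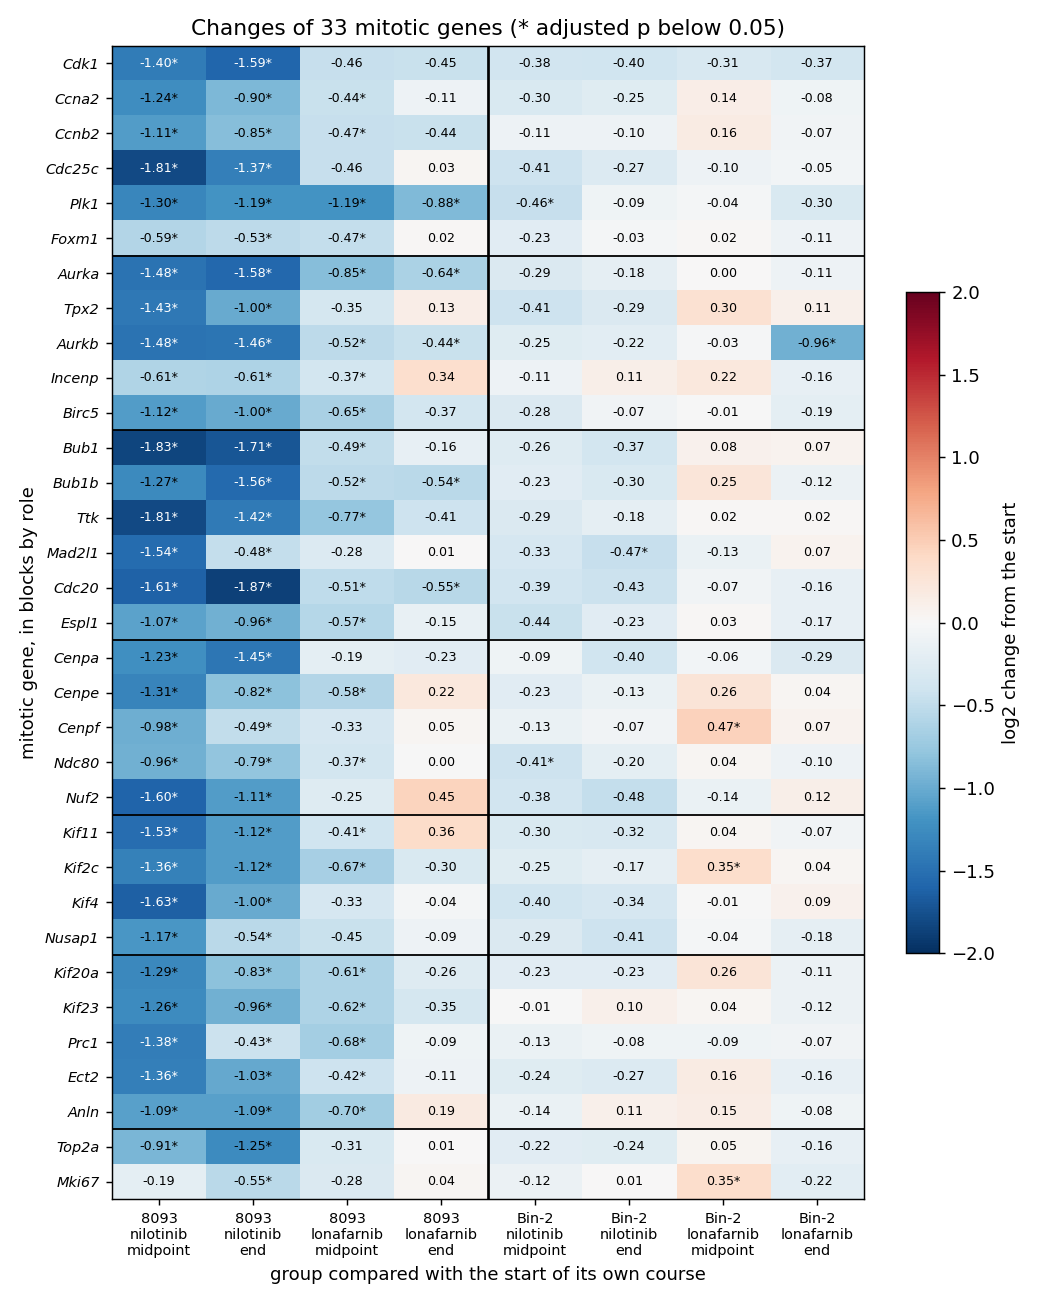
Log2 change from the group's own start for each of the 33 measured genes (vertical axis, grouped by role) in the 8 midpoint and end groups (horizontal axis), with the value in each cell and a star at a limma adjusted p below 0.05. The columns of the 8093 nilotinib course hold 32 and 33 starred falls, and the columns of Bin-2 hold 1 to 3 stars each.

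At the end of the 8093 nilotinib course, when viability was about 90%, all 33 genes were called lower than at the start, as were 24.9% of all genes, while 19.6% were called higher. The median change was -1.005, or 2.01-fold lower, against -0.147 over all genes, and 19 genes were at least 2-fold lower, against 7.78% of all genes. All 14 mast cell markers were called higher and 17 of 18 pre-B markers lower, and their part in the falls was not tested. Cdc20 had the largest fall, with levels of 6.35 and 7.36 in the 2 end arrays against 8.50 to 8.86 at the start. Its change was -1.87 ± 0.18, or 3.65-fold lower (limma adjusted p = 2.9e-10). The end arrays were themselves 1.01 units apart for this gene and both lay below all start arrays.

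Bub1 was at 7.40 and 7.87 at the end and 3.27-fold below the start. Cdk1, at 6.94 and 7.95, was 3.01-fold lower, and Aurka, at 6.92 and 7.42, was 2.99-fold lower. Bub1b was at 7.82 and 8.27, against 9.45 to 9.84 at the start, and 2.95-fold lower. In each of these 4 genes the end arrays did not overlap the start arrays, and replicate 1 of the end was the lower one. Aurkb (7.74 and 8.26), Plk1 (7.64 and 8.47) and Birc5 (6.53 and 7.003) showed the same order of the end arrays, with changes of -1.46, -1.19 and -1.001. Foxm1, at 6.76 and 6.75, changed by -0.53 ± 0.15. Replicate 1 of the end also had the higher macrophage marker mean, 9.29 against 7.78 in replicate 2, and the lower mean over the 33 genes, 7.51 against 7.79, and the part of the macrophage signal in the difference was not tested.

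The smallest falls at the end belonged to Prc1, Mad2l1 and Cenpf. Prc1, whose product bundles midzone microtubules, was at 8.06 in both end arrays, against 8.47 to 8.52 at the start, a change of -0.43 ± 0.13 (limma adjusted p = 0.00543). Mad2l1 was at 9.60 and 9.96, against 10.20 to 10.30, a change of -0.48 ± 0.13 (adjusted p = 0.00311). Cenpf changed by -0.49 ± 0.14 (adjusted p = 0.00531). Mki67, at 9.15 and 8.93, now lay below all start arrays and was called, with a change of -0.55 ± 0.13 (adjusted p = 0.00103). Top2a was at 8.92 and 9.59 and changed by -1.25. Without end replicate 1 the falls of Mad2l1 and Nusap1 were no longer called, and without end replicate 2 that of Cenpf was not.

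Between midpoint and end the genes moved apart. The comparison, which shares its end and midpoint arrays with those above, called 14 genes higher and 2 lower at the end, where 26.7% of all genes were called higher and 27.8% lower. Mad2l1 rose by 1.07 ± 0.13 (limma adjusted p = 6e-08) and Prc1 by 0.94 ± 0.13 (adjusted p = 3.41e-07), in both cases with every end array above every midpoint array. Kif4 rose by 0.63, Nusap1 by 0.62 and the kinetochore genes Cenpe and Cenpf by 0.49 each. Mki67 fell by 0.35 ± 0.13 (adjusted p = 0.0257) and Top2a fell by 0.34 ± 0.14 (adjusted p = 0.0462). The balance depended on how arrays were scaled, with 8 lower and 6 higher under quantile normalization and 4 lower and 7 higher with one interquartile range. The rises of Mad2l1, Prc1, Kif4 and Cenpe were called under every setting run, single arrays left out included. Those of Cdc25c and Ttk were called under both scalings but not with array weights or the replicate block, nor with any of 3 single arrays left out, and that of Ttk was not with the arrays of one line. The falls of Mki67 and Top2a were called under both scalings but not with array weights (7 higher, 0 lower), the replicate block (9 higher, 0 lower) or the block by plate letter, and Top2a was not with the arrays of one line or the mean of all probesets. They were also lost with single arrays left out, in 2 cases for Mki67 and 3 for Top2a.

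**Figure D3:**
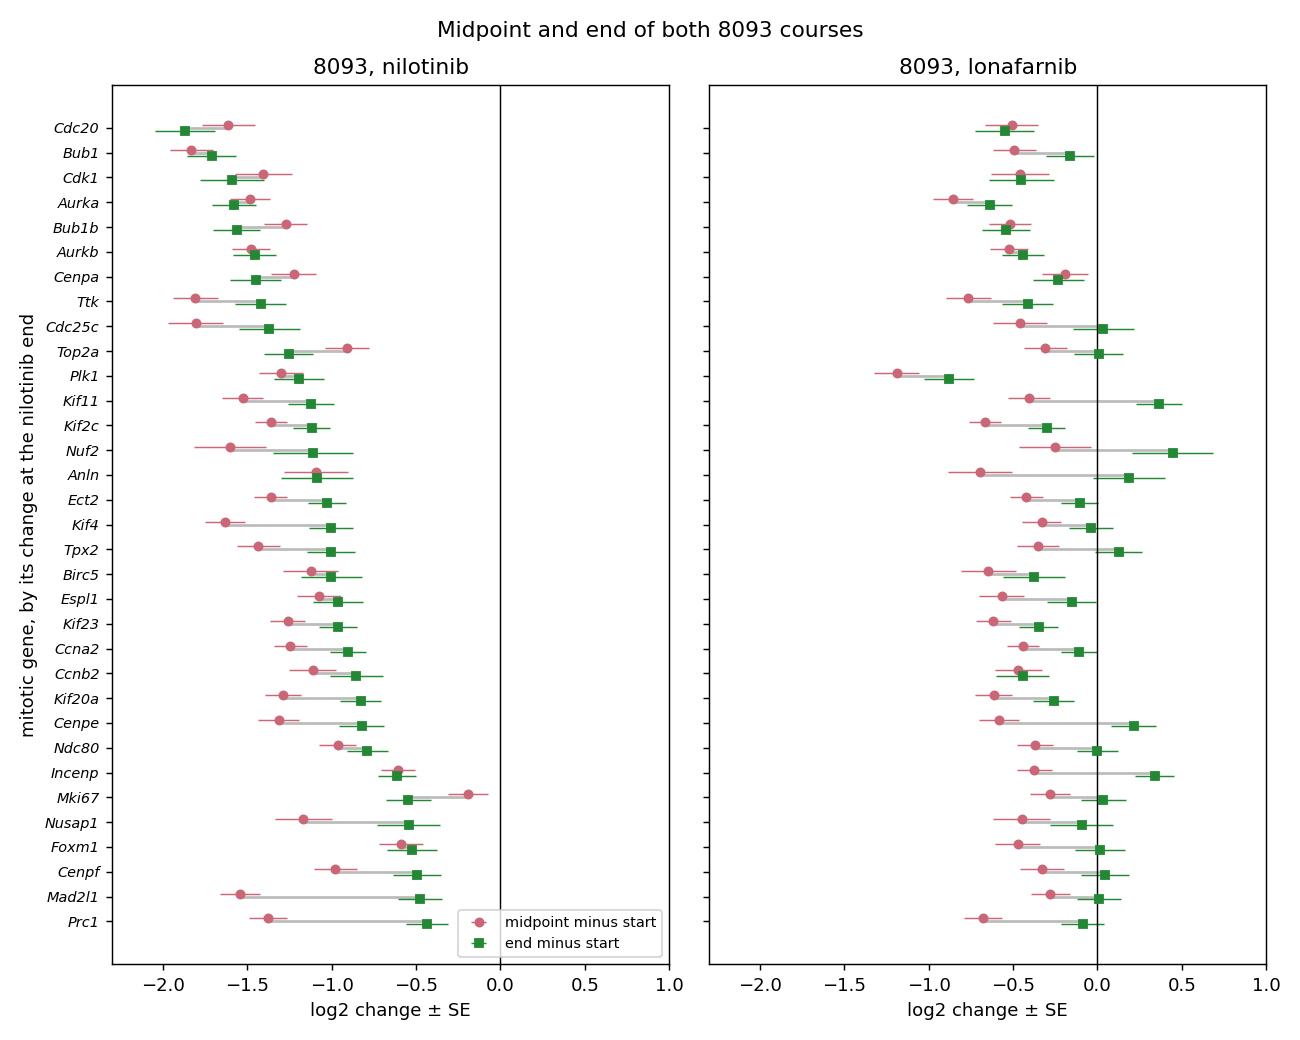
Log2 change from the start (horizontal axis, with SE) of each of the 33 genes (vertical axis, ordered by the nilotinib end change) in the 8093 nilotinib and lonafarnib courses, with midpoint as red circles and end as green squares. Mad2l1 and Prc1 moved from -1.54 and -1.38 at the nilotinib midpoint to -0.48 and -0.43 at the end, while Cdc20 went from -1.61 to -1.87.

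Under lonafarnib 8093 showed smaller falls at the midpoint and fewer at the end. At the midpoint 22 of the 33 genes fell and none rose, against 6.9% of all genes called lower and 3.89% higher. The median change was -0.47, or 1.38-fold lower, against 0.01 over all genes. All 33 changes were below 0 and 31 genes had midpoint arrays wholly below the start arrays, as did 17.7% of all genes. Without midpoint replicate 3, 14 genes were called. All 5 midzone and cytokinesis genes fell (median -0.62), as did 5 of 6 checkpoint genes, 4 of 5 Aurora and passenger genes, 4 of 6 entry genes, 2 of 5 kinetochore genes and 2 of 4 motor genes.

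Plk1 was the one gene that fell at least 2-fold. It was at 9.58, 9.50 and 9.62 at the start and at 8.36, 8.43 and 8.35 at the midpoint, a fall of 1.19 ± 0.13, or 2.28-fold (limma adjusted p = 3.03e-07). Genes called and at least 2-fold lower made up 0.16% of all genes. Aurka was at 9.02, 8.84 and 8.94 and then at 8.10, 8.12 and 8.01, a 1.81-fold fall without overlap. Ttk was at 7.63, 7.36 and 7.51 and then at 6.71, 6.81 and 6.69, a change of -0.77 ± 0.13. Anln, the anillin gene of the cleavage furrow, was at 7.10, 6.98 and 7.47 and then at 6.66, 6.41 and 6.39, a change of -0.70. Prc1 was at 8.44, 8.38 and 8.30 and then at 7.65, 7.74 and 7.71, a change of -0.68.

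Cdk1 was at 9.45, 9.24 and 9.30 at the start and at 8.77, 9.11 and 8.73 at the lonafarnib midpoint. The groups did not overlap, but the change of -0.46 was not called (limma adjusted p = 0.0867). Aurkb was at 9.65, 9.58 and 9.67 and then at 9.02, 9.20 and 9.12, and was called with a change of -0.52. Birc5, at 8.15, 7.87 and 8.07 and then 7.52, 7.40 and 7.23, changed by -0.65. Cdc20 was at 8.85, 8.77 and 8.94 and then at 8.51, 8.32 and 8.22, a called change of -0.51. That call was lost with any of 5 of the 6 arrays left out. Foxm1 was at 7.24, 7.06 and 7.45 and then at 6.67, 6.78 and 6.89, a called change of -0.47, lost with any of 4 arrays left out, as the call of Birc5 was with either of 2. The chromosome genes were not called, with changes of -0.31 for Top2a and -0.28 for Mki67. Mast cell markers were higher in the midpoint arrays, at a mean of 5.61 to 7.04 against 3.93 to 4.03 at the start, with 12 of 14 called. The macrophage mean was 6.08 to 6.97 against 4.88 to 4.93, with 8 of 15 called higher, and the fibroblast mean 5.43 to 5.48 against 5.01 to 5.13, with 2 of 19 called. The part of these markers in the falls was not tested.

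At the lonafarnib end 5 genes were called lower, against 4.31% of all genes called lower and 4.4% higher, and the median change was -0.11. The mast cell mean was 5.22 at this end against 3.99 at the start, and the macrophage mean 5.70 against 4.90, and their part was not tested. Plk1 was at 8.72 and 8.65, below all start arrays, a change of -0.88 ± 0.15, or 1.84-fold lower (limma adjusted p = 0.000161). Aurka, at 8.35 and 8.23, changed by -0.64 ± 0.13 (adjusted p = 0.00173). Bub1b was at 9.44 and 9.32, against 9.82 to 10.00 at the start, and changed by -0.54 ± 0.14 (adjusted p = 0.0127). Aurkb, at 9.17 and 9.22, changed by -0.44 ± 0.13 (adjusted p = 0.0242), and Cdc20, at 8.37 and 8.24, by -0.55 ± 0.18 (adjusted p = 0.0486). All 5 had end arrays below the start arrays. The count depended on the settings, with 1 gene called without end replicate 2, 2 without start replicate 1 and 3 without start replicate 3. It was 8 with a trended robust prior (7 lower), 10 without dim genes (9 lower) and 11 with array weights (9 lower). Under quantile normalization 3 genes were called lower and Kif11 higher (0.42).

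The other 28 genes were not called at this end, and 21 of all 33 changes were below 0. Kif11 was at 10.18 and 10.12 at the end against 9.71 to 9.83 at the start, with no overlap and an uncalled change of 0.36. Incenp was at 8.53 and 8.60 against 8.19 to 8.26, an uncalled change of 0.34. The end arrays of Nuf2 were at 7.82 and 9.07 and those of Anln at 6.95 and 7.79, the widest gaps between these 2 arrays, so the uncalled Nuf2 change of 0.45 rested on replicate 2. The macrophage marker mean was 5.20 in end replicate 1 and 6.20 in replicate 2, and its part was not tested. From midpoint to end, 8 genes rose and none fell, where 3.95% of all genes were called higher and 2.31% lower. They were Anln (0.88 ± 0.21), Cenpe (0.80 ± 0.13), Kif11 (0.77 ± 0.14), Incenp (0.71 ± 0.12), Prc1 (0.59), Foxm1 (0.49), Tpx2 (0.48) and Kif2c (0.37). Without end replicate 2, 3 of the genes were called, and without any one midpoint replicate 5 were. Without dim genes 13 were called higher.

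In Bin-2 treated with nilotinib the changes were small and the number of genes called depended on the settings. At the midpoint 2 were called lower, against 1.6% of all genes called lower and 1.87% higher. Viability was labelled 5 to 10% at the nilotinib midpoints of both lines, and its part was not tested. All 33 changes were below 0, with a median of -0.26, and the midpoint arrays lay below the start arrays in 24 genes, as in 14.7% of all genes. Plk1 was at 9.07, 9.10 and 8.95 at the start and at 8.49, 8.57 and 8.70 at the midpoint, a change of -0.46 ± 0.13 (limma adjusted p = 0.049). Ndc80 was at 7.23, 7.25 and 7.04 and then at 6.80, 6.76 and 6.72, a change of -0.41 ± 0.11 (adjusted p = 0.0251). Neither gene showed overlap, but leaving out any one array of these groups left 0 or 1 gene called. Other settings called more genes lower, 6 with a trended robust prior, 6 without dim genes and 11 with array weights. Macrophage markers were higher at this midpoint, at 7.52 to 8.79 against 5.61 to 5.99, and 6 of 19 fibroblast markers were called higher, while the mast cell mean was 4.14 to 4.61 with 0 of 14 genes called. The part of these signals was not tested.

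Cdk1 in Bin-2 was at 9.11, 9.06 and 8.85 at the nilotinib start and at 8.58, 8.57 and 8.73 at the midpoint. Aurka was at 8.44, 8.54 and 8.28 and then at 7.996, 8.12 and 8.26. Cdc20 was at 8.49, 8.53 and 8.49 and then at 8.02, 8.20 and 8.13. Each of these 3 genes had midpoint arrays below the start arrays and was not called. Aurkb was at 9.55, 9.47 and 9.42 and then at 9.23, 9.23 and 9.24, also without overlap or a call. Birc5 (7.79, 7.70 and 7.46, then 7.18, 7.44 and 7.49) and Mki67 (9.81, 9.79 and 9.70, then 9.56, 9.74 and 9.63) overlapped.

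At the end of the Bin-2 nilotinib course 3.94% of all genes were called lower and 4.95% higher. Of the 33, 1 was called lower, near the share of all genes called lower, and the gene was Mad2l1. It was at 10.19, 10.29 and 10.31 at the start and at 9.60, 9.77 and 10.03 at the end, with no overlap and a change of -0.47 ± 0.12 (limma adjusted p = 0.00775). No gene was called without end replicate 1, and 7 were called without end replicate 3. With array weights 17 genes were called lower, and 3 to 4 with a trended robust prior, without dim genes or with the arrays of one line. Mast cell markers at this end averaged 7.19 to 7.42 against 4.25 to 4.31 at the start, with 13 of 14 called higher, and 14 of 15 macrophage markers were called higher. The pre-B mean was 9.47 to 9.68, against 9.69 to 9.75. Between midpoint and end no gene was called with limma, where 1.41% of all genes were. An unadjusted limma p below 0.05 was found in 3 of the 33, namely Plk1 (0.37), Incenp (0.22) and Cenpa (-0.31). It was also found in 2046 of all 19938 genes, a share near that of 3 in 33.

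**Figure D4:**
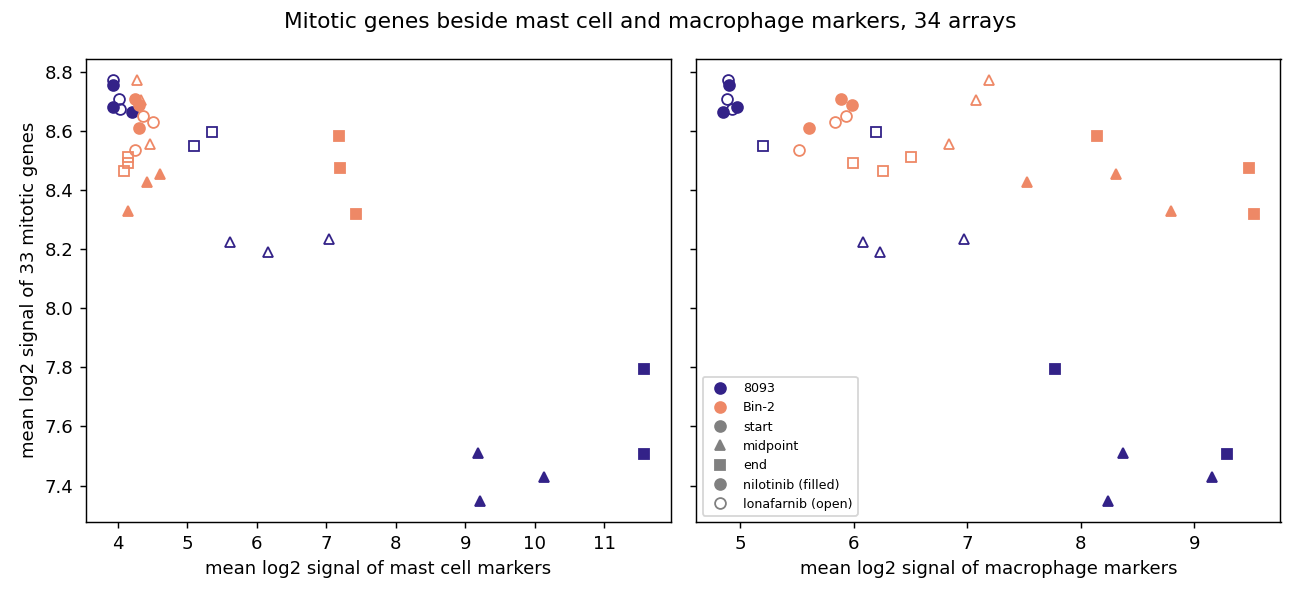
Mean log2 level of the 33 genes (vertical axis) against the mean of 14 mast cell markers (left) and 15 macrophage markers (right) in each of the 34 arrays, with colour for line, shape for stage and filled symbols for nilotinib. The Bin-2 nilotinib end arrays combine mast cell means of 7.19 to 7.42 with means of 8.32 to 8.58 over the 33 genes, whereas the 8093 nilotinib end arrays, at 11.56 to 11.57, are at 7.51 and 7.79.

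Bin-2 under lonafarnib was the course in which genes of this group were called higher at the midpoint. Cenpf, Kif2c and Mki67 rose, where 4.45% of all genes were called higher and 12% lower, and the median over the 33 was 0.04. Cenpf was at 7.70, 7.48 and 7.50 at the start and at 8.06, 7.81 and 8.21 at the midpoint, a rise of 0.47 ± 0.13 (limma adjusted p = 0.012). Kif2c was at 8.64, 8.61 and 8.54 and then at 9.04, 8.83 and 8.97, a rise of 0.35 ± 0.10 (adjusted p = 0.0138). Mki67 was at 9.78, 9.86 and 9.67 and then at 10.20, 9.91 and 10.25, a rise of 0.35 ± 0.12 (adjusted p = 0.0418). None of the 3 overlapped. The count was 1 without start replicate 2 or 3 or midpoint replicate 1 or 3, and 7 and 13 genes were called higher under quantile normalization and with one interquartile range, both including these 3. The Mki67 rise was not called with the arrays of one line or either replicate block, nor with any of 5 single arrays left out. At this midpoint 8 of 15 macrophage and 8 of 19 fibroblast markers were called higher and 7 of 18 pre-B markers lower, and their part was not tested.

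At the end of that course 3.41% of all genes were called lower and 4.66% higher. Of the 33, 1 was called lower, near the share of all genes called lower, and the gene was Aurkb. It was at 9.48, 9.52 and 9.24 at the start, at 9.37, 9.47 and 9.33 at the midpoint and at 8.43, 8.60 and 8.33 at the end. Every end array lay below every start and midpoint array, and the change from the start was -0.96 ± 0.11, or 1.94-fold lower (limma adjusted p = 4e-07). The call held with any one array left out. Its partners in the passenger complex were not called, with Birc5 at 7.98, 7.39 and 7.30 at the start and 7.37, 7.24 and 7.48 at the end, and Incenp at 8.35, 8.46 and 8.20 and then 8.11, 8.24 and 8.17. Aurka was at 8.60, 8.35 and 8.27 and then at 8.26, 8.39 and 8.26, with overlap. Plk1 was at 9.22, 9.01 and 8.92 and then at 8.74, 8.83 and 8.69, without overlap and without a call. The pre-B marker mean was 9.76 to 9.80 at this end and 9.62 to 9.74 at the start, and the mast cell mean 4.09 to 4.15 against 4.24 to 4.51.

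From midpoint to end 8 genes fell in this course, where 9.97% of all genes were called lower and 19.8% higher. Aurkb changed by -0.93 ± 0.11 (limma adjusted p = 3.71e-07) and Mki67 by -0.57 ± 0.12. Cenpf (-0.39), Incenp (-0.38), Kif20a (-0.38), Bub1b (-0.37), Ect2 (-0.32) and Kif2c (-0.31) were the others. The number was 14 under quantile normalization and 20 with one interquartile range, and 5 without midpoint replicate 1 or end replicate 1.

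**Figure D5:**
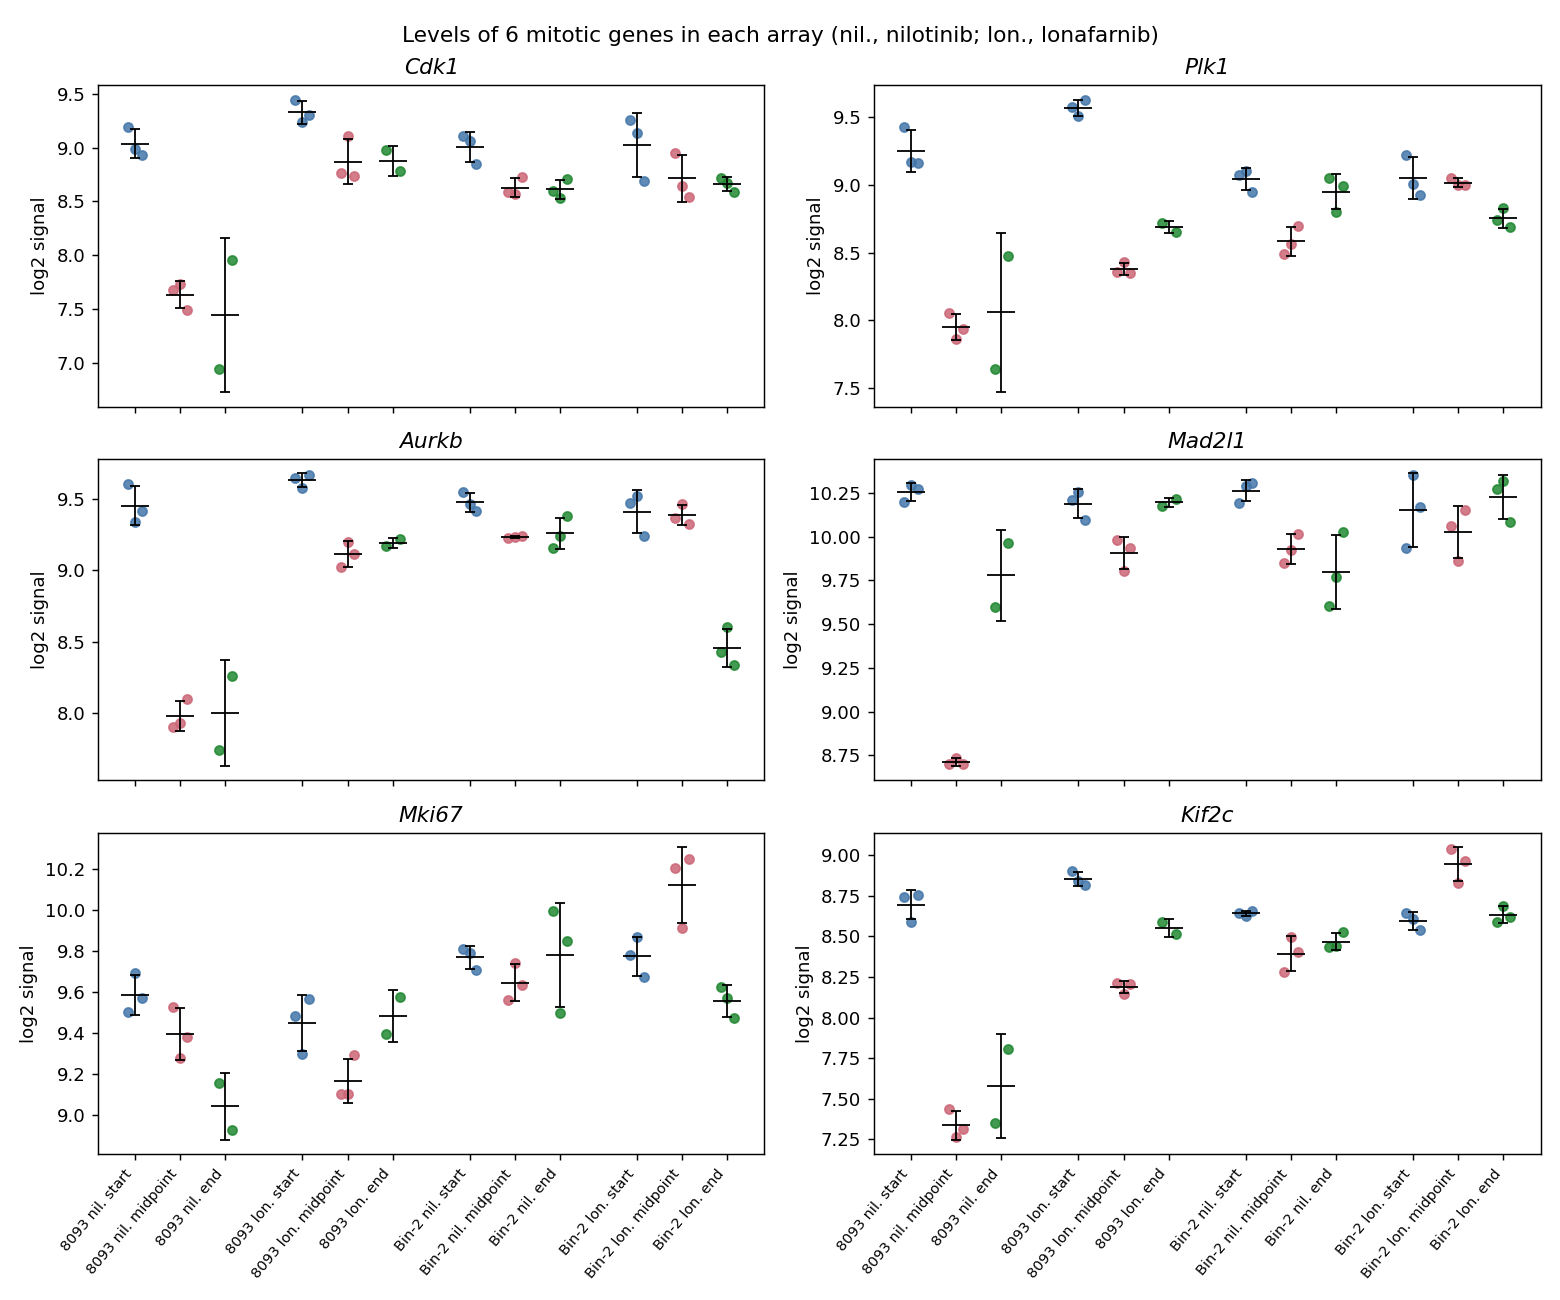
Log2 level of Cdk1, Plk1, Aurkb, Mad2l1, Mki67 and Kif2c (vertical axes) in each array of the 12 groups (horizontal axes), with dots for arrays, bars for group means and whiskers for SD. Aurkb at the Bin-2 lonafarnib end (8.33 to 8.60) lies below all other Bin-2 arrays, and Mad2l1 at the 8093 nilotinib midpoint (8.70 to 8.74) lies below all other arrays.

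The lines were compared directly by the difference of their changes, Bin-2 minus 8093. Under nilotinib 31 of 33 genes had a higher change in Bin-2 and none a lower one at the midpoint, against 18% of all genes higher and 8.01% lower. The differences were largest for Bub1 (1.57 ± 0.18, limma adjusted p = 2.42e-07), Ttk (1.52) and Cdc25c (1.39), and smallest among those called for Incenp (0.50). Foxm1 (0.35, adjusted p = 0.176) and Mki67 (0.07, adjusted p = 0.813) were not called. At the end 27 had a higher change in Bin-2, against 15.6% of all genes higher and 15% lower, led by Cdc20 (1.44 ± 0.24), Aurka (1.40) and Bub1 (1.34). Mad2l1 did not differ detectably at the end, with a difference of 0.01 and a 95% interval of -0.35 to 0.37. Foxm1, Cenpf, Nuf2, Nusap1 and Prc1 were not called either. At the nilotinib ends the pre-B marker mean was 6.02 in 8093 and 9.55 in Bin-2. The mast cell marker mean was 11.57 and 7.27, and the part of these markers was not tested.

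Under lonafarnib 15 genes had a higher change in Bin-2 at the midpoint, where 0.843% of all genes did and 3.36% had a lower one. With each array scaled to one interquartile range the count was 24. Plk1 differed most (1.15 ± 0.19, limma adjusted p = 0.000232), followed by Kif2c (1.01), Kif20a (0.88), Aurka (0.86) and Cenpe (0.84). At the end no gene was called with limma, against 4.61% of all genes. Of the 33, 8 had an unadjusted limma p below 0.05, as did 3191 of all 19938 genes. Plk1 had a difference of 0.58 ± 0.20 (adjusted p = 0.0975) and Aurkb one of -0.52 ± 0.17 (adjusted p = 0.0795). With Bin-2 start replicate 1 or 3 of the lonafarnib course left out, 1 and 2 genes were called, and 2 to 4 were under quantile normalization, a trended robust prior, without dim genes or with array weights.

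The drugs were compared in the same way, nilotinib minus lonafarnib, each against its own start arrays. In 8093 at the midpoint 27 genes had a lower change under nilotinib, against 17.6% of all genes lower and 9.19% higher. Nuf2 (-1.35 ± 0.30), Cdc25c (-1.35 ± 0.23), Bub1 (-1.34 ± 0.18), Kif4 (-1.30) and Mad2l1 (-1.26) differed most. Plk1 was not called, with a difference of -0.11 ± 0.19 and a 95% interval of -0.49 to 0.27. Foxm1 (-0.12), Incenp (-0.23), Birc5 (-0.48), Anln (-0.40) and Mki67 (0.09) were also not called. Viability at these midpoints was 5 to 10% under nilotinib and 20% under lonafarnib, and its part was not tested.

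At the end 28 genes had a lower change under nilotinib in 8093, against 17.4% of all genes lower and 15.7% higher. Nuf2 (-1.56 ± 0.34), Bub1 (-1.55 ± 0.20), Kif11 (-1.49), Cdc25c (-1.40) and Cdc20 (-1.32) led. Plk1 (-0.31 ± 0.21, 95% interval -0.74 to 0.12), Ccnb2, Birc5, Nusap1 and Prc1 were not called. The pre-B marker mean at the 8093 ends was 6.02 under nilotinib and 9.03 under lonafarnib, and its part was not tested. The Nuf2 difference came partly from the start arrays, since its lonafarnib start was 0.94 ± 0.21 below the nilotinib start. In Bin-2 at the midpoint Tpx2 (-0.71 ± 0.18) and Kif2c (-0.60 ± 0.14) had a lower change under nilotinib, against 0.441% of all genes lower and 1.04% higher, and all 33 differences were below 0. Leaving out single arrays left 0 to 2 genes called there, and 4, 8 and 9 were called without dim genes, with array weights and with one interquartile range. At the Bin-2 end Aurkb differed by 0.74 ± 0.16 (limma adjusted p = 0.00222) and Mad2l1 by -0.54 ± 0.16 (adjusted p = 0.0338). Of all genes 4.65% were called higher and 4.86% lower there, so 1 of 33 in each direction is near these shares.

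Before drug the lines were compared over the start arrays of both courses. Of the 33 genes 6 were lower and 4 higher in Bin-2, against 10.6% and 9.47% of all genes, and 4 of 33 is near the latter share. The lower genes were Bub1b (-0.44), Aurka (-0.43), Plk1 (-0.36), Ccnb2 (-0.35), Ect2 (-0.28) and Kif20a (-0.21), and the higher ones were Nuf2 (0.46), Cenpa (0.30), Foxm1 (0.27) and Mki67 (0.25). The split was 5 lower and 3 higher under quantile normalization and 8 lower and 0 higher with one interquartile range, and array weights gave 12 and 4. The count fell to 6 without replicate 2 of either Bin-2 start, and the calls of Kif20a and Foxm1 were lost in 10 and 8 of the 12 cases of one array left out. Those of Cenpa and Mki67 were lost in 6 cases each and that of Nuf2 in 5. Between the start arrays of the nilotinib and lonafarnib courses 0 of the 19938 genes were called with limma in either line. Of the 33 genes, 6 had an unadjusted p below 0.05 in 8093 and 0 in Bin-2. Over all 19938 genes the numbers were 2350 in 8093 and 1085 in Bin-2. In 8093 Nuf2 was at 7.82, 8.16 and 8.01 in the lonafarnib start arrays and at 8.61, 9.21 and 8.99 in the nilotinib ones, without overlap.

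Other genes of the mitotic machinery were followed as lists. At the 8093 nilotinib midpoint all 33 measured further kinetochore and centromere genes fell, with a median of -1.42, led by Cenpq (-2.38), Oip5 (-2.20) and Cenph (-2.15). Of 32 further kinases and regulators of G2 and mitosis 30 fell (median -1.26), led by Pbk (-2.74), Trip13 (-2.13) and the cohesin protector gene Sgo1 (-1.81). Of 31 further spindle, motor and cytokinesis genes 29 fell (median -1.14), led by Haus1 (-1.92), Shcbp1 (-1.91) and Hmmr (-1.76), while Rhoa rose by 0.25. The anaphase-promoting complex had 13 of 15 subunit and regulator genes lower (median -0.70), and condensin and cohesin 15 of 18 lower (median -0.54), with Smc4 higher by 0.38. These counts stand beside 27.5% of all genes called lower. At the end of the course 27 of 33, 27 of 32, 23 of 31, 7 of 15 and 11 of 18 were lower, against 24.9% of all genes. Under lonafarnib the same lists had 18, 23, 10, 2 and 4 genes lower at the 8093 midpoint, against 6.9% of all genes. At that end they had 3, 8, 1, 3 and 1, against 4.31%, a share to which 1 of 31 and 1 of 18 are near.

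In Bin-2 these lists held 0 to 6 lower genes in either nilotinib comparison with the start, against 1.6% of all genes at the midpoint and 3.94% at the end. Gtse1 (-0.79), Dlgap5 (-0.69) and Hmmr (-0.67) were among those called at the nilotinib midpoint. At the Bin-2 lonafarnib midpoint 11 of 33 kinetochore genes fell, led by Oip5 (-1.18), and 6 of 15 genes of the anaphase-promoting complex fell, against 12% of all genes. In the spindle list 5 genes rose there, led by Psrc1 (1.07), and 2 fell, against 4.45% of all genes higher. At the Bin-2 lonafarnib end, where Aurkb fell, Haspin (-1.28), the histone kinase that places the passenger complex at centromeres, and Spag5 (-0.83) were the largest falls in their lists.

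Changes were also listed by promoter motif. At the 8093 nilotinib midpoint the median change was -1.31 for 19 genes with a CCAAT box and -1.17 for 7 without. It was -1.36 for 11 genes with a CHR element and -1.30 for 15 without. Mki67 and Top2a, with both motifs printed above, had among the smallest changes there. Cdk1 and Cdc20, also printed with both motifs, fell more than Mki67 and Top2a. Mad2l1, with none in its printed window, changed by -1.54. The part of the motifs in the changes was not tested. These medians are descriptions, and transcription from the promoters was not measured.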

How the data were processed

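Per the labels, RNA from 34 plates was measured on 34 arrays of the type Affymetrix Mouse Gene 1.0 ST. The authors deposited log2 probeset signals, a scale read from the values, which ran from 1.02 to 14.37. Partek is named in the submitters' processing notes, without a version. How background was corrected and how arrays were normalized is not given in the sources used here. Lonafarnib is in µM per the treatment protocol, where the design text has mM.

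Of 35557 probesets, 21789 had 1 symbol in the platform annotation and were used, 1621 had several and 12147 were not listed. For 999 genes with several probesets the one of highest mean was taken, leaving 19938 genes. Limma 3.58.1 in R 4.3.3 fitted 12 group means over 34 arrays (lmFit, eBayes, 22 residual and 6.6986 prior degrees of freedom), and p-values were adjusted by Benjamini-Hochberg over all genes, with a call at an adjusted p below 0.05. Alternatives were quantile normalization, each array scaled to one interquartile range, a trended robust prior, genes above the 40th percentile of mean level only, the arrays of one line, the mean of all probesets, array weights, 2 replicate blocks and each array left out. The number of arrays limits the precision. On simulated data with changes in 200 genes of the 19938, the 8093 nilotinib end comparison recovered 53.7% of the genes changed 1.5-fold, 91% of those changed 2-fold and 100% of those changed 4-fold, with 5 false calls. The 8093 nilotinib midpoint comparison recovered 50.7%, 91% and 100% with 9 false calls, in the same order of folds. The Bin-2 lonafarnib end comparison recovered 47.8%, 92.5% and 100% with 17. The simulated noise was independent between genes. In the data far more genes were called, 8866 and 9988 at the 8093 nilotinib end and midpoint and 1608 at the Bin-2 lonafarnib end. The unadjusted p that gives a call is higher where more genes are called, so these percentages do not give the recovery in the data. Between arrays of the same number, deviations from the group mean had correlations from -0.183 to 0.164. By plate letter the mean correlation was 0.065 for the same letter and -0.032 for others in the 8093 nilotinib course. In the 8093 lonafarnib course it was 0.045 and -0.023. As the correlations were weak, no block was used in the main fit.

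The members, lists and markers were chosen with earlier results of these data known. All members could be named. Values in every array were given for 10 fixed members and for up to 5 called members with the lowest and 3 with the highest change in a comparison. A member called against the majority, or not called where at least 30 were, was named. From each other cell cycle list up to 3 called genes of largest change were named, with Mybl2, E2f1, Wee1, Mdm2 and Btg2, and further genes that moved against their list were chosen after values were seen. Cdkn1a was not measured by a probeset of that symbol alone. For markers and lists, the mean of log2 values was taken per array. Promoters were those of RefSeq on GRCm38.p6.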

Additional observations from a re-analysis of the deposited data

Results flagged for a closer look

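The change in the mitotic genes differed between lines and between drugs by limma's test of the difference itself. Under nilotinib 31 of the 33 genes differed between Bin-2 and 8093 at the midpoint, Bub1 by 1.57 log2 units. At the end 27 did, Cdc20 by 1.44. All had the higher change in Bin-2, as did 18% of all genes at the midpoint and 15.6% at the end. Under lonafarnib 15 differed between lines at the midpoint, Plk1 by 1.15, all higher in Bin-2, as were 0.843% of all genes. Between nilotinib and lonafarnib, 27 genes differed in 8093 at the midpoint, with Nuf2 at -1.35, and 28 at the end, with Nuf2 at -1.56. All had the lower change under nilotinib, as did 17.6% of all genes at the midpoint and 17.4% at the end. The lonafarnib start of Nuf2 was already 0.94 below its nilotinib start. In Bin-2 the drugs differed in 2 genes at the midpoint, among them Tpx2 (-0.71), both lower under nilotinib, as were 0.441% of all genes. At the end the drugs differed in 2, Aurkb (0.74) and Mad2l1 (-0.54), where 4.65% of all genes were called higher and 4.86% lower. With 1 of 33 in each direction, the end count was near these shares. Doses and days differed between lines and drugs. Midpoint viability was 20% in the 8093 lonafarnib course and 5 to 10% in the others. The 8093 nilotinib end arrays had a pre-B marker mean of 6.02 and a mast cell marker mean of 11.57. The part of viability and of these markers in the differences was not tested. Single outlying arrays were not tested for in these groups of 2 or 3.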

How the results depend on the processing

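Of 196 counts of called members under other settings, 152 stayed within 1.5 times the reported count. In 8093 nilotinib, 32 and 31 to 33 genes were called at midpoint and end with any array left out. The counts that moved were as follows. Quantile normalization called 5 genes from midpoint to end of 8093 lonafarnib, 1 at the Bin-2 nilotinib midpoint, 7 at the Bin-2 lonafarnib midpoint, 14 from there to the end, and 2 in the line difference at the lonafarnib end. One interquartile range gave 5, 1, 13 and 20 in the first 4 of these, 2 at the Bin-2 nilotinib end, 24 in the line difference at the lonafarnib midpoint, and 9 and 1 in the drug difference in Bin-2 at midpoint and end. The trended prior gave 8 at the 8093 lonafarnib end, 6 and 3 at the Bin-2 nilotinib midpoint and end, and 2 in the line difference at the lonafarnib end. Without dim genes these 4 were 10, 6, 4 and 3, with 13 from midpoint to end of 8093 lonafarnib and 4 in the Bin-2 drug difference at the midpoint. The arrays of one line gave 3 at the 8093 lonafarnib end, 5 from midpoint to end there, 4 at the Bin-2 nilotinib end and 1 in the Bin-2 drug difference at the end. Array weights gave 7 from midpoint to end of 8093 nilotinib, 11 at the 8093 lonafarnib end, 11 and 17 at the Bin-2 nilotinib midpoint and end, 4 in the line difference at the lonafarnib end, 8 and 4 in the Bin-2 drug difference at midpoint and end, 16 between lines at the start and 3 between the 8093 starts. The cause of these moves was not tested.

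Replicate numbers were not used to pair samples in the main fit, since the titles do not state that they pair plates. With the replicate block 9 genes were called from midpoint to end of 8093 nilotinib, 3 at the 8093 lonafarnib end, 0 at the Bin-2 nilotinib midpoint and 0 in the Bin-2 drug difference at the midpoint. With the block by plate letter, 5 were called from midpoint to end of 8093 lonafarnib and 1 each at the Bin-2 nilotinib midpoint and in the Bin-2 drug difference at midpoint and end. Neither block could be fitted to the comparisons of start arrays. From midpoint to end of 8093 nilotinib, Kif23 turned to -0.012 with quantile normalization, Ccna2 to -0.047 with one interquartile range and Top2a to 0.046 with the mean of all its probesets.

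With one array left out, 12 to 15 genes were called from midpoint to end of 8093 nilotinib, 14 to 19 at the 8093 lonafarnib midpoint, 1 to 4 at its end and 3 to 8 between them. In Bin-2, 0 to 1, 0 to 7 and 0 genes were called for nilotinib midpoint, end and the step between, and 1 to 4, 1 and 5 to 7 for lonafarnib. The line difference gave 31 and 23 to 28 for nilotinib and 11 to 17 and 0 to 2 for lonafarnib. The drug difference gave 25 to 27 and 24 to 28 in 8093 and 0 to 2 and 1 to 3 in Bin-2. The lines at the start gave 6 to 10, and the starts 0 to 2 in 8093 and 0 in Bin-2. Leaving out 1 of 2 end arrays leaves 1 that is assumed to vary like the other groups. One interquartile range moved the median of all genes from 0.03 to -0.16 at the 8093 nilotinib midpoint. In the 100 bases before the start 17 genes held a CCAAT box, 7 a CHR element and 6 both, in any of their windows.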

Other observations

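Of 24 measured genes of the MuvB, MYB and E2F group, which switch mitotic promoters on and off, 15 fell and 3 rose at the 8093 nilotinib midpoint, where 27.5% of all genes were called lower and 22.6% higher. Mybl2, the MYB factor that joins MuvB at these promoters, changed by -0.99 ± 0.17 there and by -1.21 ± 0.19 at the end (limma adjusted p = 1.3e-05 and 2.72e-06). It was not called in the other 3 courses, with changes from -0.48 to 0.07. E2f1 was not called in any course. Rb1, the retinoblastoma repressor, was higher by 1.25 at the 8093 nilotinib midpoint and by 3.30 at the end, and by 0.83 at the 8093 lonafarnib end and 0.63 at the Bin-2 nilotinib end.

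Of 20 measured genes that brake the cycle, 8 rose and 7 fell at the 8093 nilotinib midpoint, where 22.6% of all genes were called higher and 27.5% lower. At the end 9 rose and 7 fell, where 19.6% of all genes were called higher and 24.9% lower. Reprimo (Rprm), a p53-induced inhibitor of mitotic entry, was higher by 2.74 and 5.35, and Btg1 by 1.81 and 2.16. Wee1, the kinase that holds CDK1 inactive, fell together with its target in this course. The fall was 0.92 ± 0.09 at the midpoint and 0.60 ± 0.11 at the end. Wee1 arrays also lay below the start arrays at the 8093 lonafarnib midpoint (8.50 to 8.66 against 8.94 to 9.025), but not at that end. In Bin-2 they did so at both midpoints and both ends, such as 9.11 to 9.22 at the nilotinib end against 9.43 to 9.66. Btg2 was higher by 0.70 at the 8093 nilotinib midpoint, 0.68 at the lonafarnib midpoint and 0.80 at the Bin-2 nilotinib midpoint, and by 0.91 and 1.22 at the Bin-2 nilotinib and lonafarnib ends. It was lower by 0.65 at the 8093 nilotinib end (change of -0.65 ± 0.19). Mdm2, a p53 target, rose by 0.75 ± 0.11 at the 8093 lonafarnib midpoint and was not called at the nilotinib one (-0.16). Its end arrays lay above the start arrays in both 8093 courses, at 8.95 and 8.55 for nilotinib and 8.35 and 8.45 for lonafarnib.

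Of 23 genes of G1 and S phase, 20 fell at the 8093 nilotinib midpoint and 22 at the end, against 27.5% and 24.9% of all genes, while Ccnd1, the gene of cyclin D1, rose by 1.54 and 1.07. At the Bin-2 lonafarnib midpoint 13 of these 23 fell and none rose, against 12% of all genes lower, led by Rrm2 (-0.88), Ccne2 (-0.75) and Ccne1 (-0.63), where no mitotic gene of the 33 was called lower and 3 were called higher. Whether these 2 groups of genes differed from each other was not tested.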
